A study of Mus musculus with 2 samples.

Results

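The 8 genes described here, Nr3c1, Fkbp5, Tsc22d3, Klf9, Zbtb16, Per1, Errfi1 and Sgk1, are the gene of the glucocorticoid receptor and 7 genes that glucocorticoids are known to induce. They are 8 of the 32285 genes of the count matrices and were taken by symbol. The set was selected on measured values, since it was drawn up with earlier results of these libraries in view, among them lower Klf9 and Errfi1 in colotomy fibroblasts, so its values are given as a description and support no claim about glucocorticoid action. The study used mice of genotype B6/C57 aged 8 to 12 weeks, with 1 library of cells taken on day 14 after a colotomy (an operation that cuts into the colon) and 1 library taken on day 14 after a sham operation. Cells of the bowel and of the fat that lines the mesentery (MAT, mesenteric adipose tissue) were marked with hashtag antibodies by tissue and pooled in each library, and no genetic change or drug treatment is labelled in either group. How many animals went into a library is not given in the sources used here, and with 1 library per group every difference below is a difference between those libraries, with intervals for counting error only and no test.

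Glucocorticoids such as corticosterone, the main glucocorticoid of the mouse, cross the cell membrane and bind the receptor encoded by Nr3c1, which is held in the cytoplasm by heat shock proteins and immunophilins. The bound receptor moves to the nucleus, binds glucocorticoid response elements in DNA and raises transcription of a set of genes, while it lowers that of many inflammatory genes. Fkbp5 is an immunophilin that lowers the receptor's affinity for hormone and so closes a feedback loop. Tsc22d3 (GILZ) mediates part of the anti-inflammatory action. Klf9, Zbtb16 (PLZF) and Per1 are transcriptional regulators, Per1 being also part of the circadian clock. Errfi1 (MIG6) inhibits the epidermal growth factor receptor, and Sgk1 is a kinase known for its control of sodium channels.

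Sequences before the transcription starts are shown for the members whose values differ most in kind below, Klf9 as lower in fibroblast-like cells, Sgk1 as higher in macrophage-like cells, and Per1 as a clock gene. RefSeq windows (build GRCm38.p6) of 250 bases before to 50 bases after a start were read for 6 members, 15 windows in all; Zbtb16 was not matched and Nr3c1 was not used here. Both strands were searched for the core of the glucocorticoid response element (GNACA, any 3 bases, then TGTNC), for the shorter motif AGAACA, which can overlap that core, and for the E-box CACGTG, bound by clock proteins. The 250 bases before the start, 5′ to 3′ with motif letters in capitals, are as follows for Sgk1 at chr10:21993640-21993889 (plus strand, within introns of longer Sgk1 transcripts), Klf9 at chr19:23140976-23141225 (plus strand, outside annotated transcripts) and Per1 at chr11:69098699-69098948 (plus strand, within Per1 transcripts, with 1 base in a UTR exon).
Sgk1: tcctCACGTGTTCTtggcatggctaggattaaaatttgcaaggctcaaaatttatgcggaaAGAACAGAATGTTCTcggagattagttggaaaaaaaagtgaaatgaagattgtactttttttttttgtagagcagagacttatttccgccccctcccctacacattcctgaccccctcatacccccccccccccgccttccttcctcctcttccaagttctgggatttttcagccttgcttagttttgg
Klf9: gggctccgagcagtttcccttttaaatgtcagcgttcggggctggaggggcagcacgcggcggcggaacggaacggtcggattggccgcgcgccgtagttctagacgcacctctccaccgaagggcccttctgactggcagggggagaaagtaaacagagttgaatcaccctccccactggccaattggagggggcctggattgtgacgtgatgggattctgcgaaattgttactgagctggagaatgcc
Per1: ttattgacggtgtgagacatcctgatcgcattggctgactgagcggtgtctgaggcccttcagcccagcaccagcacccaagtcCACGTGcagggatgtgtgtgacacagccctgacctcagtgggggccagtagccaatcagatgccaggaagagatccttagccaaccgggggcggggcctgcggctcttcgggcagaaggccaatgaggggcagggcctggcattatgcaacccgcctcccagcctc
Of all 32851 RefSeq windows, 0.475% held the response element core, 19.0% the shorter motif and 7.15% the E-box. The printed Sgk1 window, chosen among 6 of that gene for its matches, held the core with its first base at −188 from the start and the shorter motif at −242, −189 and −180, of which those at −189 and −180 overlap the core, and an E-box at −246. Of the other Sgk1 windows 2 held the shorter motif alone, at −195 and −13, and 3 held none of the motifs. The printed Per1 window held an E-box at −166, the other Per1 window none of the motifs, and the 1 Klf9 window none either. These are matches of letters in short windows, and receptor sites are known to lie far from starts as well, so that nothing is read from a window with no match.

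The colotomy library kept 9246 barcodes with 8728608 gene UMIs (unique molecular identifiers, each counting 1 captured transcript) and a median of 778.5 per cell, and the sham library 42143 barcodes with 70442705 UMIs and a median of 1328. Cells were clustered without the listed genes and named by marker sets, with 14 classes named and 11 compared, namely those with at least 100 cells in both libraries. The libraries differed in other ways that touch all classes. Xist was at 491 CPM (CPM being the UMIs of a gene scaled to a common total of gene UMIs per class and library) in fibroblast-like cells of the colotomy library and at 1.64 CPM in those of the sham library, with Y-linked genes at 163 and 209 CPM. The labels used here give no sex, and a difference in the sex of the animals cannot be told apart from the operation; Tsc22d3 lies on chromosome X, as Xist does. Neutrophil markers in the same cells summed to 2205 CPM against 116 (9 of 9 higher), macrophage markers to 368 against 104, B cell markers to 430 against 1995 and T cell markers to 65.9 against 253 (9 of 9 lower in each). The 10 fibroblast markers themselves summed to 50125 and 28053 CPM. Hashtags separated poorly, with 6141 and 33450 kept barcodes positive for neither, and 108 barcode sequences occurred in both libraries.

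Klf9, Errfi1 and Zbtb16 had their highest levels of the sham library in fibroblast-like and smooth muscle-like cells and, for Zbtb16, vascular endothelial-like cells. In the sham library Klf9 was at 418 CPM in smooth muscle-like cells, 386 in fibroblast-like, 277 in mesothelial-like and 252 in vascular endothelial-like cells, and then dropped to 85.7 in goblet-like cells and to 16.4 in plasma cell-like cells, the lowest. The intervals of the smooth muscle-like and fibroblast-like levels overlapped, and those of the vascular endothelial-like and goblet-like levels did not. Errfi1 was at 225 CPM in smooth muscle-like, 166 in fibroblast-like and 67.3 in epithelial-like cells, with no overlap between these neighbours, and at 4.53 to 39.6 CPM in the other classes. Zbtb16 was at 96.2 CPM in fibroblast-like, 79.1 in vascular endothelial-like, 72.5 in smooth muscle-like and 51.6 in mesothelial-like cells, and at 11.9 or less elsewhere.

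Sgk1 had a different place. Vascular endothelial-like cells held 244 CPM and epithelial-like cells 131 in the sham library, and the other classes 14.9 to 49.3. The order of the colotomy library was 320 CPM in vascular endothelial-like, 246 in macrophage-like and 130 in epithelial-like cells, where the first pair overlapped and the third stood below.

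Nr3c1, Tsc22d3, Per1 and Fkbp5 were spread more evenly over the classes of the sham library. Nr3c1 ran from 52.6 CPM in plasma cell-like to 145 in vascular endothelial-like cells, and fibroblast-like cells at 137 overlapped the highest level. Tsc22d3 ran from 47.9 CPM in goblet-like to 340 in B cell-like cells, Per1 from 21.8 in goblet-like to 57.2 in macrophage-like cells, and Fkbp5 from 23.4 in dendritic-like to 57.9 in epithelial-like cells. Erythroid-like cells, taken here as a background class since maturing red cells lose most RNA other than that of globins, held 251 CPM of Tsc22d3 and 40.8 of Per1, against 197 and 42.7 in fibroblast-like cells of the same library. They also held 69.7 CPM of Nr3c1 and 25.03 of Fkbp5, above the level of Nr3c1 in 4 classes and of Fkbp5 in 2, so that these lowest levels are not read as expression. The Per1 level of sham fibroblast-like cells was therefore within the counting interval of the background class, and that of Tsc22d3 below it.

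**Figure D1:**
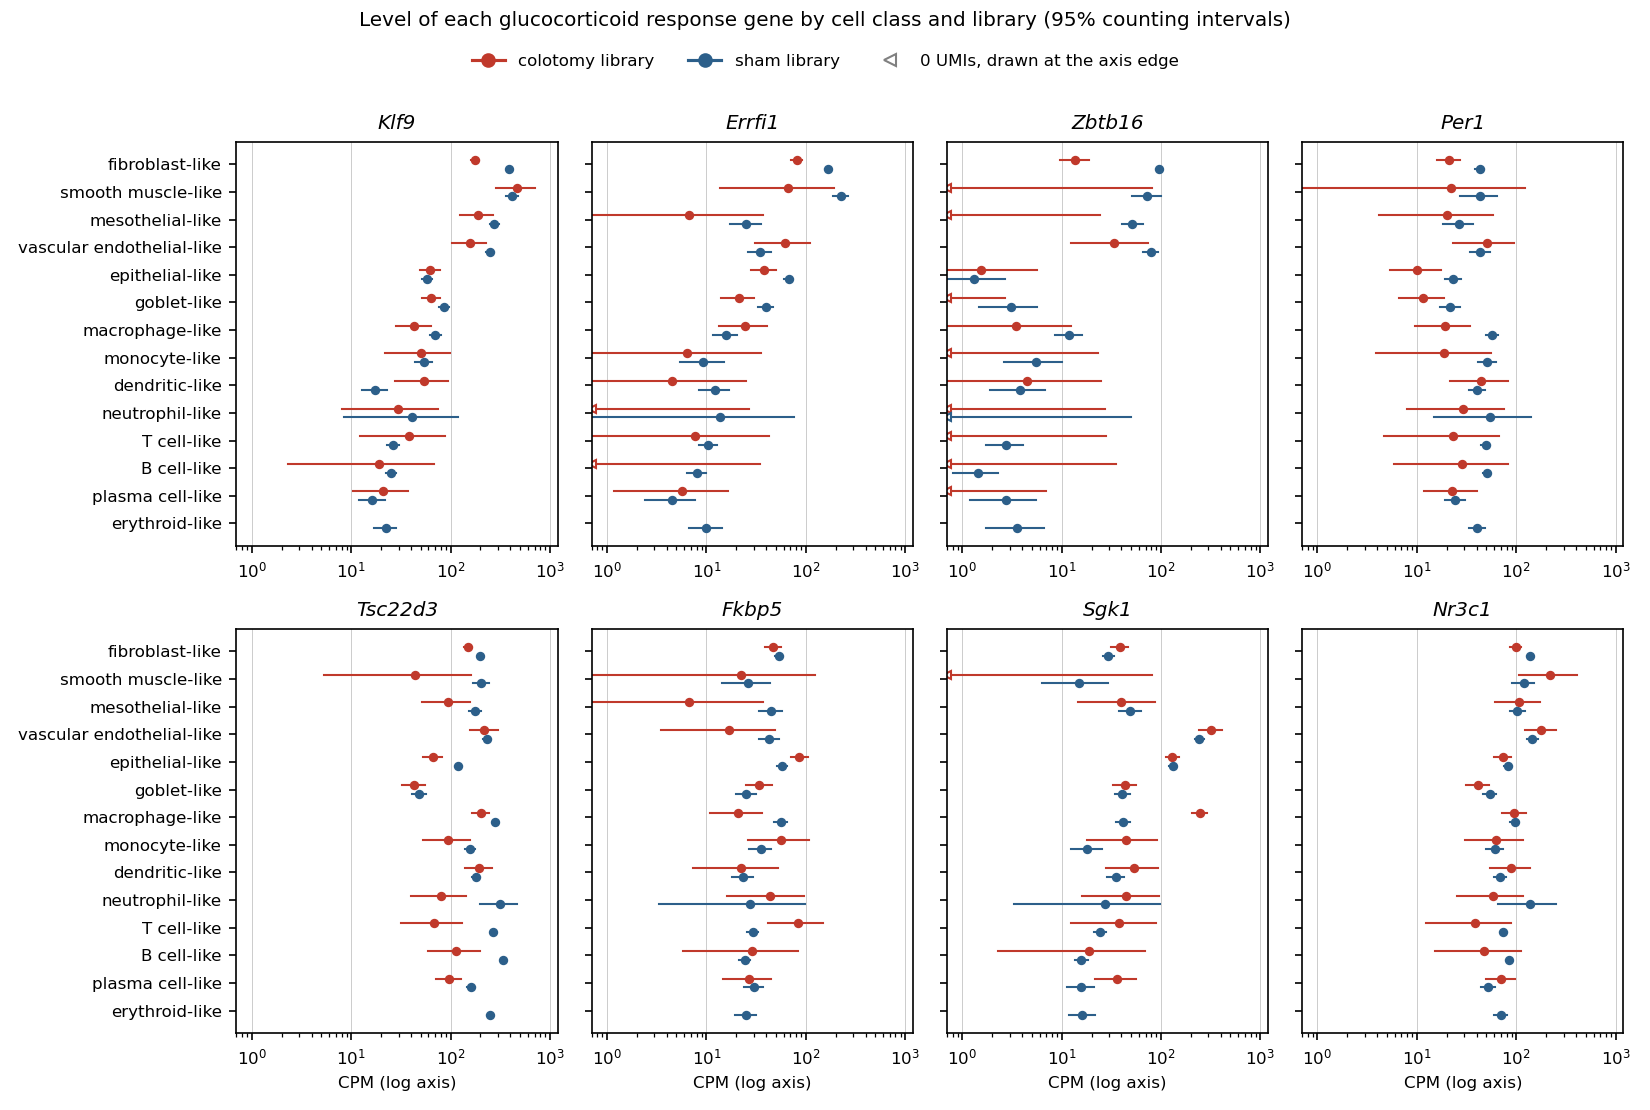
Level of each of the 8 genes in CPM (x axis, log scale) by cell class (y axis) in the colotomy and the sham library, with lines for 95% counting intervals; classes with fewer than 50 cells in a library are left out and open triangles mark 0 UMIs. In the sham library Klf9 and Zbtb16 stand high in the fibroblast-like to vascular endothelial-like classes at the top, and Errfi1 in fibroblast-like and smooth muscle-like cells. Sgk1 stands high in vascular endothelial-like cells at 320 (colotomy) and 244 CPM (sham) and, in the colotomy library, in macrophage-like cells at 246 CPM.

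The lower values of Klf9 and Errfi1 in colotomy fibroblast-like cells (3394 cells, against 5006 in sham) held for Zbtb16 and for Per1 (the latter at the level of the background class), in smaller size for Nr3c1 and Tsc22d3, and not for Fkbp5 or Sgk1. Within the clusters of the class the lower values of Klf9 and Zbtb16 remained, while Errfi1 turned direction in the smaller sham cluster, with an interval that held 0. At least 1.5-fold lower were 4 of the 8 members and at least 1.5-fold higher 0, where 19.9% of all 14334 genes with at least 10 UMIs in the class were lower and 17.3% higher. At 2-fold the counts were the same, 4 lower and 0 higher, with 9.66% and 9.24% of all genes. The median log2 ratio of the members was −0.75, and that of all genes −0.04. Klf9 and Errfi1 helped to choose the members, so nothing is read from that count beyond its description.

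Klf9, a zinc finger transcription factor, had 484 UMIs in colotomy and 3298 in sham fibroblast-like cells, which is 175 against 386 CPM. That is 2.20-fold lower in colotomy, a log2 ratio of −1.14 (95% interval −1.28 to −1.002). Errfi1 had 223 and 1417 UMIs, or 80.7 against 166 CPM, and was 2.06-fold lower (1.78 to 2.38). The intervals of both levels stood apart between the libraries.

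Zbtb16 showed the widest gap of the set. It had 38 UMIs in colotomy and 821 in sham fibroblast-like cells, 13.8 against 96.2 CPM, and was 6.99-fold lower (5.05 to 9.95), a ratio below which only 0.419% of the tested genes of the class lay. Per1 had 58 and 365 UMIs, 21.0 against 42.7 CPM, and was 2.04-fold lower (1.54 to 2.73). Per1 was 2.21-fold lower over all kept cells too, at 18.7 against 41.4 CPM, and its sham level in fibroblast-like cells was that of the background class, and the part of free RNA in this ratio was not tested.

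The receptor gene Nr3c1 had 272 and 1170 UMIs, 98.5 against 137 CPM, and a log2 ratio of −0.48 (−0.67 to −0.28), short of 1.5-fold. Tsc22d3 had 416 and 1684 UMIs, 151 against 197 CPM, and a log2 ratio of −0.39 (−0.55 to −0.23). The lower B cell markers of these cells (430 against 1995 CPM) and the background level of Tsc22d3 touch this gene as they do Per1, and their part in it was not tested.

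Fkbp5, often used as a readout of receptor activity, had 130 and 460 UMIs, 47.1 against 53.9 CPM, and a log2 ratio of −0.19 whose interval (−0.49 to 0.09) held 0. Sgk1 went the other way, with 106 and 252 UMIs, 38.4 against 29.5 CPM, and a log2 ratio of 0.38 (0.04 to 0.71). Neither reached 1.5-fold.

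Depth differed between the libraries, so the share of cells with a UMI was read after thinning each cell to 1000 UMIs, which 657 colotomy and 4050 sham fibroblast-like cells could supply. The shares before thinning are of all 3394 colotomy and 5006 sham cells of the class, shallower cells included, and so of a wider set of cells. Klf9 was found in 15.5% of the colotomy cells (exact Clopper-Pearson interval 12.8 to 18.5; 12.5% before thinning) and 31.1% of the sham cells (29.7 to 32.6; 43.4% before thinning). Errfi1 was found in 5.94% (4.25 to 8.03; 5.83% before) and 14.1% (13.04 to 15.2; 20.2% before), and Zbtb16 in 1.22% (0.527 to 2.39; 1.09% before) and 9.23% (8.36 to 10.2; 14.3% before). The share intervals of these 3 genes did not overlap between the libraries, as those of the sums did not. Those of Tsc22d3 did not either (8.95 to 13.9 in colotomy and 16.8 to 19.2 in sham cells), while those of the other members overlapped. For how many of all genes they would not overlap was not computed, so nothing is read from this.

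Erythroid-like cells of the sham library (median 1299 UMIs, against 1507 in sham and 709.5 in colotomy fibroblast-like cells) gave the background. At 1000 UMIs they showed Klf9 in 2.21% of cells, Errfi1 in 1.47% and Zbtb16 in 0.441%, all far below the sham fibroblast-like shares, and Zbtb16 of the colotomy cells overlapped it. For Per1 the background was 3.38%, against 2.89% in colotomy (1.75 to 4.48) and 4% in sham fibroblast-like cells (3.42 to 4.65), with all 3 intervals overlapping. For Tsc22d3 it was 24.6%, above both the 11.3% of colotomy and the 18.0% of sham fibroblast-like cells. Shares of Per1 and Tsc22d3 in fibroblast-like cells did not stand above that of the background class, so nothing is read from them as expression. Whether the erythroid-like values come from free RNA was not tested, and the class had only 25 colotomy cells, too few for a background of that library.

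Fibroblast-like cells fell into 2 clusters that the libraries filled unequally. Cluster 0, led by Pcolce2, Scara5 and Inmt, held 1219 colotomy and 4805 sham cells (35.9% and 96.0% of the class). Cluster 6, led by Ptn, Timp1, Col12a1 and Col1a1, held 2175 and 201 (64.1% and 4.02%). Both clusters come from these cells' own expression, so a change in which cells were present and a change within cells cannot be told apart.

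Klf9 and Zbtb16 were lower in colotomy within each cluster. Klf9 was at 224 against 393 CPM in cluster 0, a log2 ratio of −0.81 (−1.02 to −0.61). It was at 152 against 244 CPM in cluster 6, a log2 ratio of −0.69 (−1.03 to −0.34). Zbtb16 was at 22.2 against 99.02 CPM in cluster 0 and at 9.68 against 36.0 CPM in cluster 6, log2 ratios of −2.16 and −1.89. Neither interval of Zbtb16 held 0, though cluster 6 rests on 18 and 14 UMIs.

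Errfi1 did not keep its direction. In cluster 0 it was at 137 against 172 CPM, a log2 ratio of −0.33. In cluster 6 it was at 53.2 against 33.4 CPM, a log2 ratio of 0.67 from 99 and 13 UMIs, with an interval that held 0 (−0.17 to 1.63). Its level differed between the clusters by more than between the libraries, with 172 CPM in cluster 0 and 33.4 in cluster 6 of the sham library. When the sham clusters were weighted to the colotomy mix, the sham level of Errfi1 was 78.8 CPM against 80.7 in colotomy, a log2 ratio of 0.04. With the 3 clusters of the finer resolution the ratio was −0.30, against −1.15 unweighted. Those 3 clusters hold a smaller set of cells (3095 colotomy and 4325 sham), so the 2 weighted ratios are not of the same cells.

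The same weighting left Klf9 at −0.74 and Zbtb16 at −2.04 on the log2 scale, and Per1 at −0.73 and Nr3c1 at −0.43. Tsc22d3 came to 0.04, Fkbp5 to 0.35 and Sgk1 to 0.26. Within cluster 0, 3 members were at least 1.5-fold lower and 0 higher (18.4% and 17.3% of all genes), and within cluster 6, 3 were lower and 2 higher (17.0% and 19.0%), the higher being Errfi1 and Fkbp5. In cluster 6 the intervals of Errfi1, of Fkbp5 (−0.22 to 1.75) and of Per1 among the lower (−1.56 to 0.48) held 0. At the finer resolution a Pi16-led cluster of 844 colotomy and 1398 sham cells had Klf9 (−0.81), Errfi1 (−0.87) and Zbtb16 (−2.94) lower. Per1 (−0.90) and Fkbp5 (−0.64, −1.29 to −0.04) were lower there too, so that Fkbp5 differed from its value in the whole class. Sgk1 was at 0.32. The share of all genes past 1.5-fold was not computed for this cluster.

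**Figure D2:**
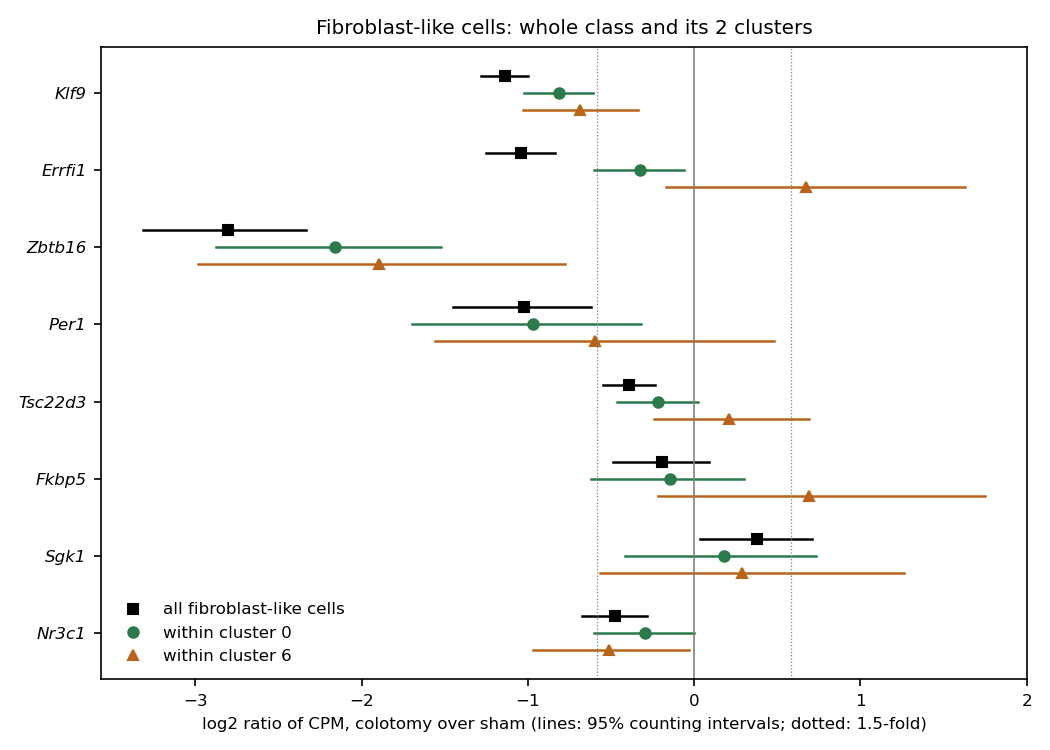
Log2 ratio of CPM, colotomy over sham (x axis), of each member (y axis) in all fibroblast-like cells and within clusters 0 and 6, with 95% counting intervals and dotted lines at 1.5-fold. Klf9 and Zbtb16 lie left of 0 in all 3 sets, while Errfi1 moves from −1.04 in the class to 0.67 in cluster 6, where its interval holds 0.

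The tissue hashtags gave the same order for Klf9, which had a log2 ratio of −0.71 among fibroblast-like cells positive for hashtag 1 alone (bowel, per the submitters' reference table) and −1.40 among those positive for hashtag 2 alone (MAT). Per1 was at −0.25 with hashtag 1, which ends its 1.5-fold call. The median of the members was −0.27 with hashtag 1 and −1.08 with hashtag 2. These calls are weak. In the sham library the positive and negative means lay 0.631 (hashtag 1) and 0.173 (hashtag 2) standard deviations of the negative group apart, against 0.975 and 0.880 in colotomy. The values are therefore not read as a difference between bowel and MAT.

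Macrophage-like cells (675 colotomy and 1806 sham cells, 1 cluster led by Pf4, Folr2 and C1qa) showed the widest gap in the upward direction. At the finer resolution the cells named macrophage-like were a wider set of 766 colotomy and 2441 sham cells, and no cells were named monocyte-like. That wider set fell into clusters that the libraries filled unequally. A Folr2-led one held 314 colotomy and 1571 sham cells, and an Mmp12-led and Spp1-led one 222 and 44. A Lyz1-led one held 230 and 826, and its leading genes (Lyz1, Ear2 and Retnla first) were those of the separate monocyte-like class used elsewhere here. A change in which cells were present and one within cells cannot be told apart here. Sgk1 had 142 and 146 UMIs, 246 against 41.4 CPM, and was 5.95-fold higher in colotomy (4.69 to 7.55). After thinning to 1000 UMIs it was found in 22.9% of 157 colotomy cells (16.6 to 30.3; 13.6% before thinning) and 3.47% of 1497 sham cells (2.60 to 4.53; 6.76% before), with 1.18% in the erythroid-like background. Over 14 alternative settings its log2 ratio was 1.70 to 3.18, and the lowest came from cells with at least 1000 UMIs and 500 genes. That setting kept 46 colotomy and 1354 sham cells in the class. It left clusters with macrophage markers unnamed, among them an Mmp12-led one of 104 colotomy and 87 sham cells.

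Other members of the macrophage-like class mostly stood lower. Fkbp5 was at 20.8 against 55.8 CPM (12 and 197 UMIs), 2.68-fold lower, Per1 at 19.1 against 57.2 CPM, 3.001-fold lower, and Klf9 at 43.4 against 70.0 CPM, 1.61-fold lower. Zbtb16 had 2 and 42 UMIs. Nr3c1 was level, at 95.4 and 96.3 CPM. In all 4 members were at least 1.5-fold lower and 2 higher, where 28.2% of all genes were lower and 17.3% higher; the second higher one, Errfi1, had 14 and 55 UMIs and an interval that held no difference. Neutrophil markers summed to 950 against 198 CPM in these cells and fibroblast markers to 1138 against 417, and the part of either in Sgk1 was not tested. Of 16 immediate early and dissociation genes 10 were at least 1.5-fold higher in these cells and 0 lower, their median being 1.01 on the log2 scale and that of all genes −0.14, and their part in Sgk1 was not tested either. In the colotomy library Sgk1 itself was at 320 CPM in vascular endothelial-like, 130 in epithelial-like, 44.1 in neutrophil-like and 38.4 in fibroblast-like cells. The part of RNA from any of these classes in the macrophage-like ratio was not tested.

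Klf9 was also lower in vascular endothelial-like cells, at 157 against 252 CPM (28 and 447 UMIs, 1.61-fold), and had a ratio short of 1.5-fold in mesothelial-like (187 against 277 CPM) and goblet-like cells (63.9 against 85.7 CPM). Zbtb16 was lower in vascular endothelial-like cells at 33.7 against 79.1 CPM, from 6 and 140 UMIs. In mesothelial-like cells it had 0 UMIs in colotomy and 68 in sham, at least 2.58-fold lower with the floor of 3 counts. Smooth muscle-like cells, too few to compare, had 0 Zbtb16 UMIs among 45212 in colotomy and 39 among 538084 in sham.

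Errfi1 was lower in both kinds of epithelium, at 38.2 against 67.3 CPM in epithelial-like cells (1.76-fold) and at 21.1 against 39.6 CPM in goblet-like cells (1.88-fold). The epithelial-like class joined a Dmbt1-led and Cftr-led cluster 10 (964 colotomy and 811 sham cells) and a Saa1-led and Krt20-led cluster 15 (240 and 1325). Within them Errfi1 was at 24.1 against 27.5 CPM and at 98.0 against 102 CPM, nearer to level than in the class; a change in which cells were present and one within cells cannot be told apart here either. Fkbp5 in epithelial-like cells was at 86.5 against 57.9 CPM (1.49-fold higher). It was at 70.3 against 52.1 CPM in cluster 10, where the interval held no difference, and at 155 against 63.0 CPM in cluster 15. Sgk1 of epithelial-like cells was at 130 against 131 CPM in the class and higher within each cluster, at 80.9 against 54.2 CPM and at 339 against 197 CPM.

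Tsc22d3 was lower in lymphocytes, where it is best known, and in several other classes. It was at 114 against 340 CPM in B cell-like cells (12 and 3821 UMIs, 2.99-fold), at 68.6 against 269 CPM in T cell-like cells (9 and 2256 UMIs, 3.92-fold) and at 97.0 against 160 CPM in plasma cell-like cells (1.65-fold). Within the plasma cell-like class it was at 135 against 165 CPM in cluster 22, with an interval that held no difference, and at 69.4 against 148 CPM in cluster 27. Epithelial-like cells had it at 66.2 against 120 CPM, with 70.3 against 86.5 CPM in cluster 10, where the interval held no difference, and 48.98 against 149 CPM in cluster 15. Mesothelial-like cells had it at 93.5 against 177 CPM. The erythroid-like background class of the sham library held 251 CPM of Tsc22d3 (233 to 271). The sham levels of plasma cell-like, epithelial-like and mesothelial-like cells lay below that, and that of T cell-like cells overlapped it (258 to 280). The part of free RNA in these ratios was not tested. The B cell-like and T cell-like classes held only 142 and 170 colotomy cells against 8993 and 7146, and their colotomy cells lay mostly in clusters 1 and 25 (T cell-like) and 2 and 20 (B cell-like), while sham cells also filled clusters 9 and 13 and clusters 5, 16 and 17. B cell markers were lower in sum in every compared class of the colotomy library, from 142 against 568 CPM in goblet-like cells to 3482 against 5784 in B cell-like cells themselves, and their part in the lower Tsc22d3 was not tested. Colotomy T cell-like cells also held more enteroendocrine markers, 1471 against 32.2 CPM in sum (5 of 5 tested higher), and more epithelial markers, 739 against 403 CPM, whose part was not tested.

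Sgk1 was higher in plasma cell-like cells as well, at 36.1 against 15.7 CPM (19 and 45 UMIs, 2.31-fold). Within the class it was at 49.4 against 17.7 CPM in cluster 22. In cluster 27 it was at 26.4 against 10.2 CPM from 8 and 8 UMIs, with an interval that held no difference. The sham level of the class was that of the erythroid-like background (16.1 CPM, 11.7 to 21.5). Monocyte-like cells had Sgk1 at 44.3 against 18.1 CPM from 7 and 33 UMIs, with an interval that held no difference.

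Counts of members past 1.5-fold varied by class. In mesothelial-like cells 4 were lower and 0 higher (24.4% and 22.6% of all genes), in epithelial-like cells 3 and 0 of 7 tested (16.6% and 23.0%), in goblet-like cells 2 and 0 (13.6% and 15%), and in vascular endothelial-like cells 3 and 1 (22.8% and 25.1%). B cell-like cells had 3 lower and 0 higher of 6 tested (18.1% and 41.7%), T cell-like cells 3 and 2 of 7 (17.0% and 41.0%), monocyte-like cells 2 and 2 of 7 (21.9% and 24.1%), plasma cell-like cells 1 and 1 of 7 (22.2% and 21.2%), and dendritic-like cells 1 and 2 (18.7% and 24.8%). Many of these rest on few colotomy UMIs. Over all genes the median log2 ratio lay off 0 by more than 0.1 in B cell-like (0.35), T cell-like (0.36), epithelial-like (0.14) and macrophage-like cells (−0.14), and the ratios given are not shifted by it.

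**Figure D3:**
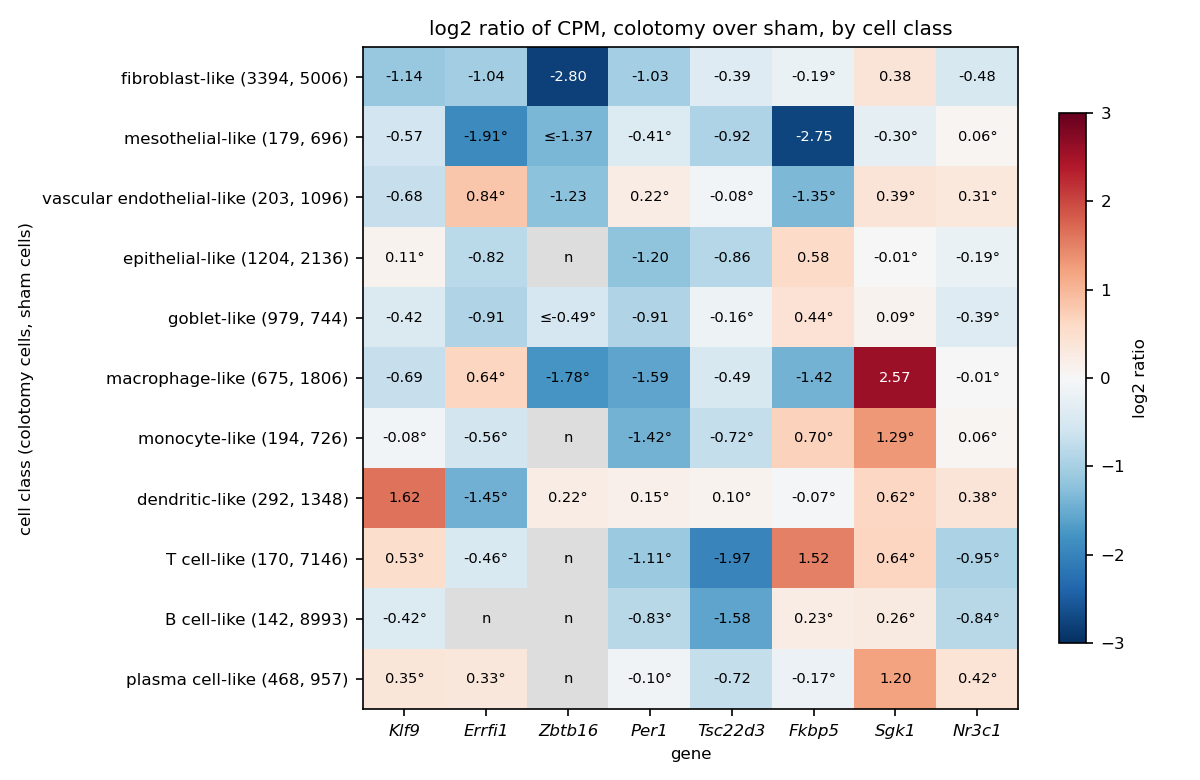
Log2 ratio of CPM, colotomy over sham (colour and printed value), for each member (x axis) in each compared class (y axis, with cells per library); a degree sign marks an interval that holds 0, ≤ marks a bound, and grey with n marks members with too few UMIs. Sgk1 in macrophage-like cells (2.57) and Zbtb16 in fibroblast-like cells (−2.80) stand out at either end.

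Other genes of the pathway did not share 1 direction in fibroblast-like cells. Of 32 other glucocorticoid-induced genes 31 could be compared. Of these 6 were at least 1.5-fold lower and 8 higher, where 19.9% of all genes of the class were lower and 17.3% higher. Their median log2 ratio was −0.22 (all genes −0.04). The lowest were Ddit4, an inhibitor of mTOR signalling (−1.23), the insulin receptor substrate Irs2 (−1.06) and the transcription factor Foxo1 (−1.04). The highest were the decoy receptor Il1r2 (3.42), the metallothionein Mt2 (1.72) and the haemoglobin scavenger receptor Cd163 (0.94). Il1r2 and Cd163 are also genes of neutrophils and macrophages, whose markers were higher in these cells by the sums given above, and their part was not tested.

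The receptor's own machinery was nearly level in its median. Of 18 genes for its chaperones, cofactors and steroid supply 2 were lower and 0 higher (19.9% and 17.3% of all genes), with a median of −0.08. The lower were Hsd11b2, which inactivates corticosterone (8 and 53 UMIs, −1.10), and the mineralocorticoid receptor Nr3c2 (10 and 52 UMIs, −0.75, with an interval that held 0). Short of 1.5-fold, the coactivator Ncoa2 (−0.43), Ncoa3 (−0.43), Ncoa1 (−0.41), Med1 (−0.35) and Ncor1 (−0.31) had intervals below 0. H6pd, Hsp90aa1 and Ptges3 were at 0.36, 0.26 and 0.21, with intervals above 0.

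Inflammatory genes that glucocorticoids are known to repress stood higher. Of 14 that could be compared 10 were at least 1.5-fold higher and 0 lower (17.3% and 19.9% of all genes), with a median of 1.52. The highest were the cytokine gene Il1b (442 and 59 UMIs, 160 against 6.91 CPM, 4.53), the chemokine gene Cxcl2 (4.36) and the cyclooxygenase gene Ptgs2 (3.06), and the lowest Icam1 (−0.25), Csf1 (−0.13) and Lif (0.53). Il1b, Cxcl2 and Ptgs2 are genes of neutrophils and other myeloid cells too, neutrophil markers were higher in these cells by the sums given above, and their part was not tested.

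Clock genes and genes set off by tissue dissociation were read because Per1 belongs to the first and because digestion alone can move such genes. Of 16 clock genes 1 was lower and 4 higher (19.9% and 17.3% of all genes), with a median of 0.00. Hlf was lowest (−0.88) before Cry2 (−0.45) and Cry1 (−0.34), and Nr1d1 highest (1.12) before Npas2 (0.81) and Tef (0.71). Of 16 immediate early and dissociation genes 0 were lower and 3 higher (19.9% and 17.3% of all genes), with a median of 0.39. Ier3 (3.07), Hspa1b (0.94) and Fosb (0.62) were highest, and Egr1 (−0.48), Ier2 (−0.20) and Atf3 (−0.01) lowest. The same list had medians of 1.01 in macrophage-like and 1.10 in dendritic-like cells. In the latter 11 of 16 were higher and 0 lower, where 24.8% of all genes were higher and 18.7% lower. The hour of day at which the animals were sampled is not given in the sources used here, and its part in Per1 was not tested.

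**Figure D4:**
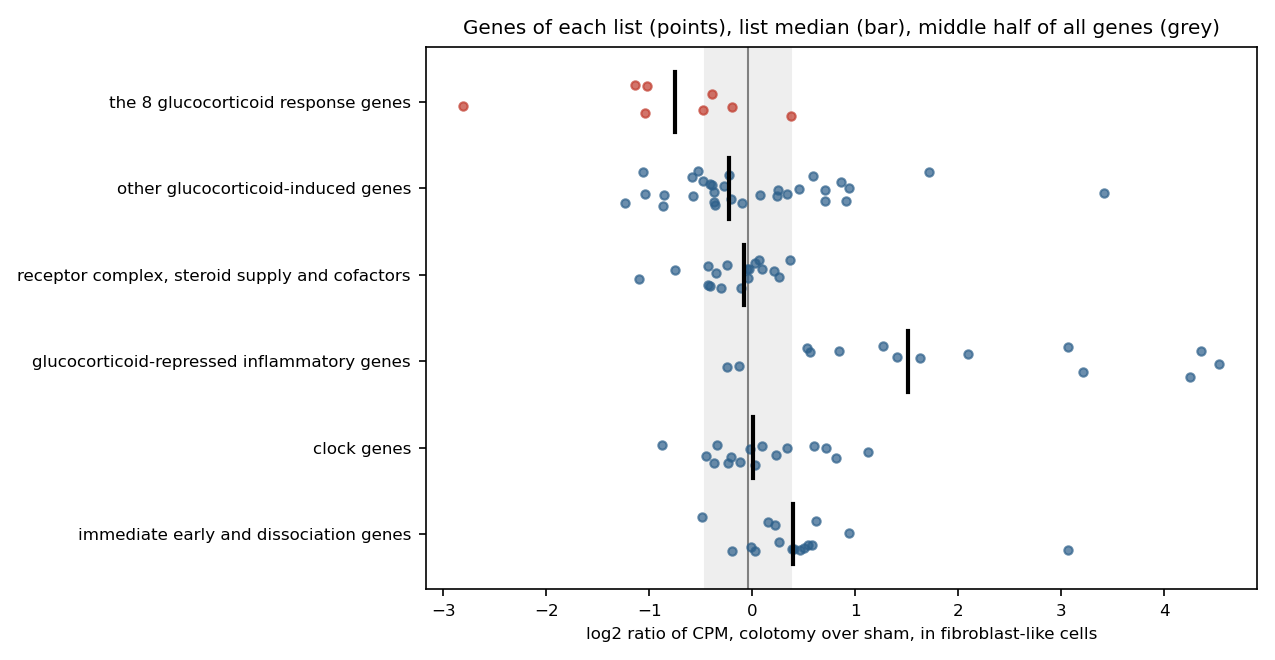
Log2 ratio of CPM, colotomy over sham, in fibroblast-like cells (x axis) for each gene (points) of 6 lists (y axis), with list medians as bars, the median of all genes as a grey line and the middle 50% of all genes as a grey band. The members lie mostly left of the line with a median of −0.75, and the repressed inflammatory genes right of it with a median of 1.52.

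The genes whose levels followed Klf9 most closely over the 27 points given by class and library (14 classes, Pearson r of log2(CPM + 10) among 13982 genes) were Thra (r = 0.935), which encodes a thyroid hormone receptor, Lamb2 (r = 0.926), a laminin chain, and Prelp (r = 0.922), a proteoglycan of the matrix. For Errfi1 they were Kank2 (r = 0.844), Sobp (r = 0.839) and Plekhh3 (r = 0.837). These are descriptions over points that share libraries, depth and free RNA.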

How the data were processed

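Counts are raw UMI counts per gene and barcode as deposited, made with Cell Ranger 6.0.0 per the file headers. Per the submitters' processing notes the build was mm10 and STAR 2.5.1b, Seurat and Space Ranger were used, with no role given. A barcode was kept with 500 or more gene UMIs, 300 or more genes and a mitochondrial share under 20%. Scrublet called 0 barcodes in either library, and no doublets were removed. Cells were clustered together (scanpy 1.11.5; 2000 variable genes without the 105 listed genes, 30 components, 15 neighbours, Leiden resolution 1), giving 40 clusters, 24 named from 22 marker lists. A name needed at least 3 markers, each in at least 10% of cells and at 2 times the CPM of other cells. The naming rule was set after seeing the clusters.

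UMIs were summed per class and library. CPM values have exact Poisson intervals, ratios exact conditional binomial intervals and shares Clopper-Pearson intervals, at 95% (scipy 1.17.1), for counting error only. A gene was compared with at least 10 UMIs over both libraries and called at 1.5-fold. A count of 0 took a floor of 3 counts. With 1 library per group no test was made. The calculation was tested on simulated data. The members and lists were chosen with earlier results of these data known. Named are all 8 members and the 3 highest and 3 lowest genes of each other list with at least 50 UMIs. Also named are the 3 genes nearest in pattern to Klf9 and Errfi1, and further genes of the receptor machinery whose intervals left out 0.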

Additional observations from a re-analysis of the deposited data

Results flagged for a closer look

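Fkbp5 had ratios of opposite direction in 2 classes, a log2 ratio of 1.52 in T cell-like cells (11 and 245 UMIs) and of −2.75 in mesothelial-like cells (1 and 59 UMIs, interval −8.07 to −0.21). Enteroendocrine markers summed to 1471 against 32.2 CPM and epithelial markers to 739 against 403 CPM in those T cell-like cells, Fkbp5 was at 86.5 CPM in colotomy epithelial-like cells, and the part of such RNA in the T cell-like ratio was not tested. Klf9 had a log2 ratio of 1.62 in dendritic-like cells (12 and 50 UMIs) and of −1.14 in fibroblast-like cells. Each of these 4 intervals left out 0, and the differences between classes were not tested. Among cells of 1000 or more UMIs the Klf9 ratio of dendritic-like cells was −0.22. After thinning, Klf9 was found in 0 of 44 colotomy and in 2.18% of sham dendritic-like cells. Its sham level in that class, 17.5 CPM, overlapped that of the erythroid-like background (22.2 CPM, 17.0 to 28.4).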

How the results depend on the processing

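Klf9, Zbtb16, Per1 and Nr3c1 kept a ratio below 0 in fibroblast-like cells in all 21 alternatives, with log2 ranges of −1.40 to −0.63, −3.71 to −1.60, −1.23 to −0.25 and −0.59 to −0.22; Errfi1 did so in 18 of 21. Errfi1 reversed within cluster 6 (0.67), within cluster 3 at resolution 2 (0.84) and with the sham library weighted to the colotomy mix at resolution 1 (0.036). The weighting was chosen after seeing the data, as was a subtraction of 10% of UMIs with the profile of all kept cells, which stands in for a planned profile of barcodes under 500 UMIs that was not run, since the sham library had 0 of them.

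The median log2 ratio of the members moved from −0.75 to −0.27 (hashtag 1), −1.08 (hashtag 2), and −0.31 and −0.15 (clusters 0 and 6). At resolution 2 it was −0.27, −0.73 and −0.15 within clusters 0, 2 and 3. Weighted at resolutions 1 and 2 it was −0.20 and −0.39. Of all genes of the class 17.3% were at least 1.5-fold higher and 19.9% lower in the main setting, and 9.24% and 9.66% at 2-fold. Such shares are not given for most other alternatives. Members at least 1.5-fold higher were 0, but 1 with at least 1000 UMIs, 1 in cells with Y-linked RNA and no Xist, 1 with hashtag 1, and 2 within cluster 6 and within cluster 3 at resolution 2. Members lower were 4 and ranged from 2 to 6, with 6 for hashtag 2 and 3 for hashtag 1. They were 3 within each of clusters 0 and 6, and 5 within cluster 2 at resolution 2. They were 2 within clusters 0 and 3 at resolution 2 and when weighted at resolution 2. Of the other glucocorticoid-induced genes, higher were 8, but 5 with hashtag 2 and 2 at 2-fold; lower were 6, but 11 with at least 1000 UMIs, 11 in cells with Y-linked RNA and no Xist, 3 at 2-fold, 2 within cluster 6, 2 within cluster 3 at resolution 2, and 3 and 2 when weighted at resolutions 1 and 2.

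Among ratios past 1.5-fold in other classes these reversed; ratios short of 1.5-fold that changed sign are not listed. Errfi1 in dendritic-like cells came to 1.05 (at least 1000 UMIs), 0.49 (clustered with all genes), 0.16 (resolution 2), 0.49 (thinned) and 0.71 (subtracted), and in vascular endothelial-like cells to −0.30 (Y-linked RNA and no Xist). With at least 1000 UMIs Klf9 came to −0.22 in dendritic-like and 0.03 in macrophage-like cells. With hashtag 1 Klf9 in vascular endothelial-like cells came to 0.040 and Per1 in B cell-like cells to 1.21. With hashtag 2 Tsc22d3 in epithelial-like cells came to 0.14 and Zbtb16 in vascular endothelial-like cells to 0.028. Per1 in T cell-like cells (0.43) and Tsc22d3 in plasma cell-like cells (0.12) reversed among cells with Y-linked RNA and no Xist, and Tsc22d3 in mesothelial-like cells (0.081) after thinning. For all of these the cause was not tested. No paired analysis was possible because each group has 1 library.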
